A study of Mus musculus with 30 samples.

Results

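Late involution of the mouse mammary gland was compared with early involution across 2 genotypes. The late arrays are the 12 labelled involution day 3 or 4, 6 from E2F3 +/- mice and 6 from wild type (WT) mice. The early arrays are the 12 labelled day 1 or 2, with the same split. Together they are 24 of the 30 arrays of the study, and the other arrays, from lactating glands, were not used. The E2F3 +/- mice are heterozygous at E2f3 as the labels write it, the allele is not described, and no treatment, strain or age is given. Each group of 1 genotype and day holds 3 mice, and total RNA came from mammary glands, with all their cell types mixed. Gland RNA was amplified, labelled with Cy5 and hybridised to spotted 70-mer oligonucleotides beside Cy3-labelled RNA from a common mouse reference. Values below are log2 ratios to that reference minus the array's median. Gland over reference is the likely direction, from the dyes in the labels, and the deposited table does not state it. No probe is named E2f3, so the targeted gene was not read out.

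Involution is the regression of the gland once suckling stops. In the first, reversible phase milk-producing cells die and milk is retained. In the second phase proteases break down the matrix around the alveoli, macrophages clear cell remains, and fat cells refill the gland. E2F3 is a transcription factor of cell cycle entry. The comparison sets the days of matrix breakdown against the days of first cell death, with genotype held as a block.

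The gland was recognisable on every array, because the milk protein gene Lalba lay at log2 8.53, 10.09 and 11.12 (lowest, median and highest) on the late arrays and at 7.48, 11.37 and 12.48 on the early arrays. The days did not fall in a plain order along the first principal component, which held 49.1% of the variance. The WT day 2 arrays, labelled early, scored 19.7 to 57.8, above the WT day 3 arrays at -13.3 to -3.28. Of the 24 arrays, 16 were most like their own group and 22 were most like a group of their own phase. The WT day 2 replicate 3 array was nearest to the E2F3 +/- day 4 group, with a correlation of 0.81 against 0.33 with its own group (Pearson, centred on all arrays). Replicate 1 of E2F3 +/- day 3 and replicate 3 of E2F3 +/- day 4 correlated negatively with their own groups, at -0.43 and -0.32, and were nearest to WT day 3. Replicate 2 of WT day 4, a late array, was nearest to WT day 2, at 0.42 against 0.30 with its own group. These 4 arrays, and the WT day 2 group, go against their labels in this respect. Whether any array carries the wrong label was not tested, and a wrong label between the phases would change the late minus early values below. Each fit uses the labels as given.

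**Figure D1:**
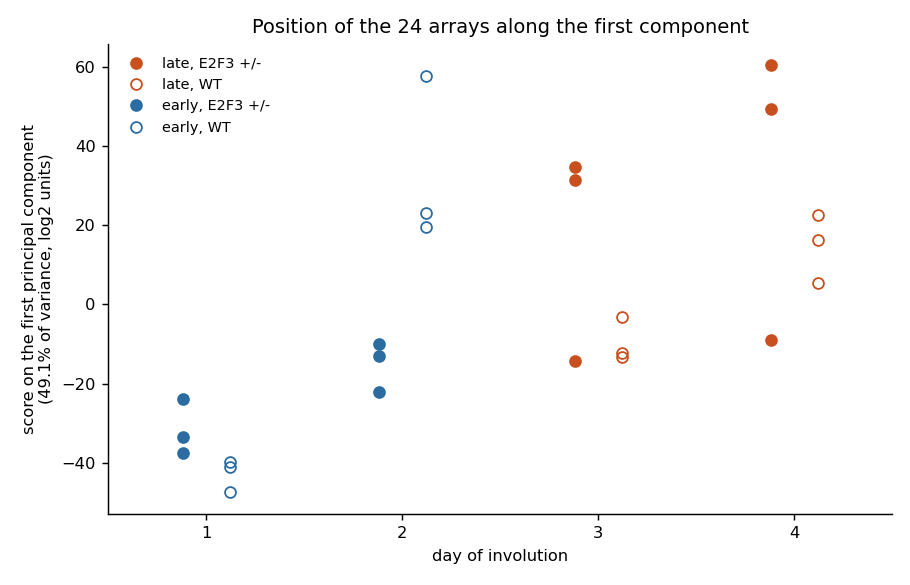
Score of each array on the first principal component (y axis, log2 units, 49.1% of variance) by day of involution (x axis). Orange points are late and blue points early arrays, filled for E2F3 +/- and open for WT; the 3 WT day 2 arrays lie between 19.7 and 57.8, above every other early array.

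Of 5438 probes tested, 677 (12.4%) passed between the phases at an adjusted p under 0.05 (limma, Benjamini-Hochberg). Late glands were higher on 347 probes (6.38%) and lower on 330 (6.07%). Among the probes that passed, 139 of the higher and 66 of the lower ones differed by 2-fold or more. The median difference was 0.90 for the higher and -0.73 for the lower probes, against -0.07 over all tested probes. Without array centring the split was 395 higher and 247 lower. The count was 2782 without the 3 WT day 2 arrays, 1257 higher and 1525 lower. It was 2083 without the 4 arrays that were nearest to a group of the other phase or correlated negatively with their own group. It was 2249 when only WT day 4 replicate 2 of these was kept. Leaving out single arrays gave 303 (without WT day 1 replicate 1) to 1647 (without WT day 2 replicate 3).

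Few probes separated every late array from every early array. Only probe M300015200, on the higher side, and probe M300009864, on the lower side, had phases that did not overlap (0.0184% of tested probes each, 0.0368% together). Neither carries a single gene symbol. Probe M300015200 lay between 0.43 and 1.70 on the late arrays and between -1.01 and 0.29 on the early arrays. Probe M300009864 lay between -2.41 and -1.71 on the late arrays and between -1.62 and -0.69 on the early arrays. With the 3 WT day 2 arrays set aside, a choice made after their position was seen, 67 probes (1.23%) had every late array above the other 9 early arrays and 44 (0.809%) had every late array below them.

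The steps between days were tested with a mean for each genotype and day and were averaged over the 2 genotypes. In this form of fit 1551 probes passed between the phases. Between day 2 and day 1, 2071 probes passed (38.1%), while 0 passed between day 3 and day 2 and 0 between day 4 and day 3 (limma; 771 or 14.2% and 633 or 11.6% at an unadjusted p under 0.05). Of the 347 higher probes, 205 made their largest step between day 1 and day 2, 85 between day 2 and day 3, and 57 between day 3 and day 4. Of the 330 lower probes, 195 made their largest step between day 2 and day 3, 112 between day 1 and day 2, and 23 between day 3 and day 4. These counts use the arrays that chose the probes, and the late minus early difference gives the middle step the greatest weight. Several genes named below changed mostly between days 1 and 2 and less between days 2 and 3. Their 2 steps were -3.35 and -0.34 for Wfdc12, -2.77 and -0.53 for Cldn4, and 3.04 and 0.39 for Cyp2e1. Cyp24a1 (-3.19 and -0.23), Abcg1 (3.06 and 0.26), Tyrobp (1.81 and 0.07) and Ctsl (-1.84 and -0.04) were alike. For such genes the phase difference largely sets day 1 apart. Others, among them Mup3 and Tpsb2, changed mostly between days 2 and 3.

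Mup3 had the largest difference of any named gene. It encodes a major urinary protein, a lipocalin that carries small hydrophobic molecules and is best known from the liver. Its log2 ratio was 5.95, 7.29 and 8.93 on the late arrays, against 0.06, 2.56 and 6.46 on the early arrays (lowest, median and highest of 12). The difference was 4.19 ± 0.66 (SE), or 18.3-fold, with an adjusted p of 0.00144 (limma). All 12 late arrays exceeded the early median and 8 exceeded the highest early array. From day 1 to day 4 the means were 2.51, 3.45, 7.12 and 7.23. Its ratios moved in whole steps of 0.1, as if the reference signal lay at a fixed lowest value, and a 70-mer may not separate Mup3 from its close paralogs.

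Several of the 12 highest genes belong to macrophages and other immune cells. Lgals3, the carbohydrate-binding galectin-3 of macrophages, was at -2.74, -1.21 and 0.71 on late arrays and at -5.32, -3.61 and -0.93 on early arrays. That is a difference of 2.00 ± 0.36 (adjusted p = 0.00552), and a second Lgals3 probe gave 1.81 ± 0.43. Ctss, cathepsin S, which trims the invariant chain in antigen-presenting cells, was at 1.01, 1.99 and 3.34 on late arrays and at -1.82, -0.48 and 2.78 on early arrays. It was higher by 2.04 ± 0.45 (adjusted p = 0.00988). Outside WT day 2 its early arrays reached 0.53 at most, below every late array. Pla2g7, a secreted phospholipase that inactivates platelet-activating factor, was higher by 1.91 ± 0.43 (adjusted p = 0.0112). Retnla, a secreted product of alternatively activated macrophages and fat, was higher by 2.34 ± 0.69 (adjusted p = 0.0359). Retnla passed in 14 of the 24 fits that leave out a single array, with adjusted p up to 0.0644 without WT day 1 replicate 1.

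The tryptase Tpsb2, a granule protease of mast cells, was higher in late glands. Its log2 ratio was 2.16, 4.11 and 5.30 on late arrays, against 0.32, 2.21 and 4.55 on early arrays. The difference was 1.85 ± 0.36, or 3.59-fold (adjusted p = 0.0072), and 11 of 12 late arrays exceeded the early median. Day means were 2.01, 2.34, 4.00 and 4.04 from day 1 to day 4. Mcpt4, the chymase of connective tissue mast cells, was at 0.93, 3.00 and 4.70 on late arrays and at -0.08, 1.07 and 2.99 on 11 early arrays. It was higher by 1.68 ± 0.44 (adjusted p = 0.023), and 6 late arrays exceeded the highest early one. Kit, the mast cell growth factor receptor and the other tested member of that list, gave 0.38 and did not pass. Igkv9-120, an immunoglobulin kappa variable segment of B-lineage cells, was higher by 1.98 ± 0.44 (adjusted p = 0.0118), and related segments may share its probe.

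**Figure D2:**
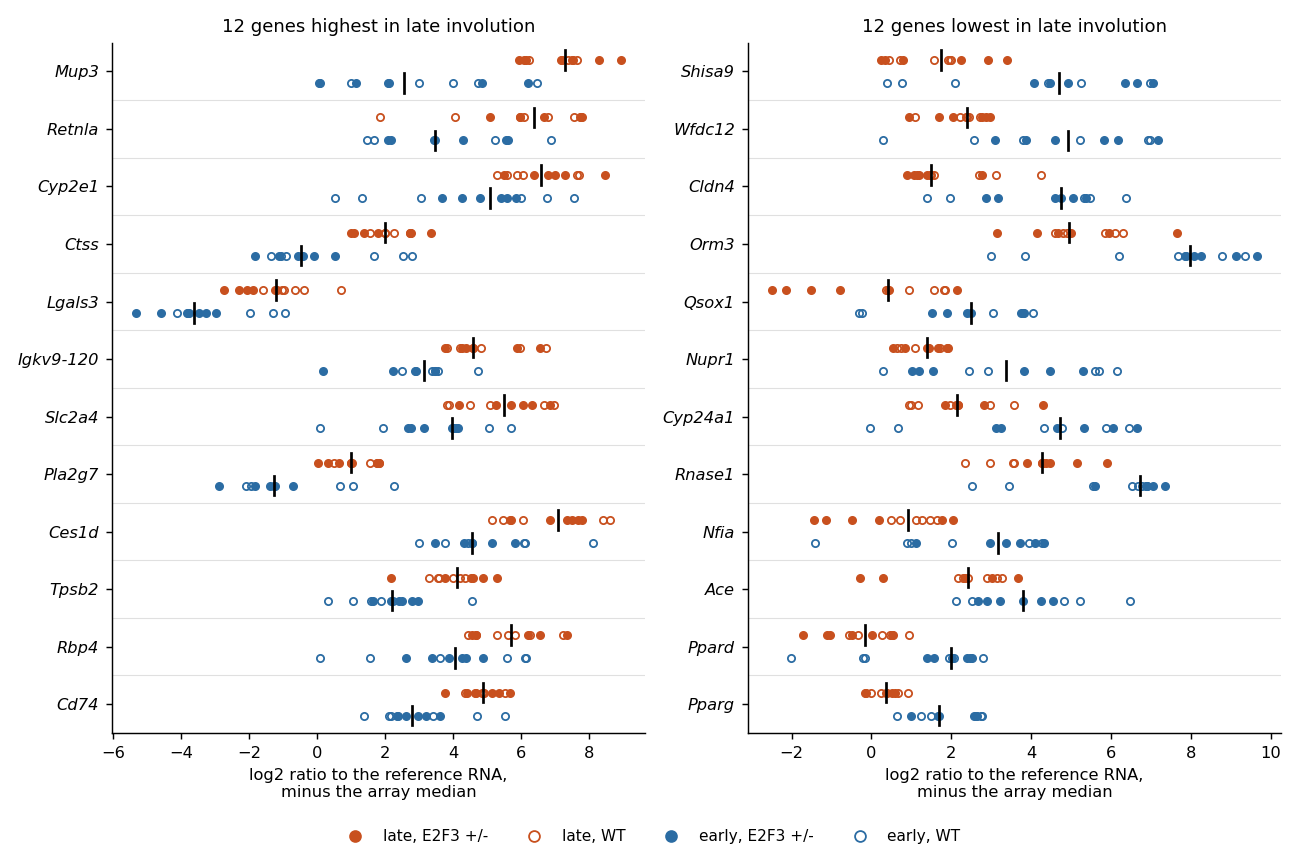
Log2 ratio to the reference RNA minus the array median (x axis) for the 12 named genes highest and the 12 lowest in late involution (rows), with late arrays (orange) above early arrays (blue), E2F3 +/- filled and WT open, and a black bar at each median. For Mup3, 8 of 12 late arrays lie above the highest early array, while Pla2g7 has 0 late arrays above it.

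Genes of matrix proteases and their inhibitors rose in part. With the probes of a gene averaged, 201 of 3209 genes (6.26%) were higher and 126 (3.93%) lower, and the median gene differed by 0.01. Of 10 tested matrix proteases and inhibitors, 6 were higher and 0 lower, with a median of 1.23. Averaged over these 10 genes, the late arrays ran from -0.28 to 0.71. The early arrays split, with the 3 WT day 2 arrays at 0.18, 0.30 and 0.74 and the other 9 at -0.58 or below. The count was 6 to 8 when single arrays were left out and 9 without the 3 WT day 2 arrays.

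Mmp2, gelatinase A, was at 0.52, 1.43 and 2.29 on late arrays and at -1.89, -0.47 and 2.08 on early arrays. It rose by 1.60 ± 0.35, or 3.03-fold (adjusted p = 0.00842). Its membrane-bound activator Mmp14 was at -0.28, 0.95 and 1.37 on late arrays, against -1.77, -1.28 and 2.10 on early arrays. Mmp14 rose by 1.51 ± 0.34 (adjusted p = 0.00924). Mmp11, the stromelysin of stromal cells, rose by 1.43 ± 0.33, and the secreted serine protease Htra1 by 1.39 ± 0.30 (adjusted p = 0.0099 and 0.00842). For each of these 4 genes every late array exceeded the 9 early arrays outside WT day 2, and the phases overlapped only through WT day 2, where Mmp2 lay at 1.11 to 2.08. Day means of Mmp2 were -1.04, 0.56, 1.21 and 1.51 from day 1 to day 4. Serpinf1, an inhibitor-family protein of stroma, also rose, by 1.31 ± 0.26 (adjusted p = 0.00678). The protease inhibitor Timp2 gave -0.63 ± 0.61 and did not pass (adjusted p = 0.478).

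Fibroblast genes that passed were also higher in late glands. Of 23 tested, 7 were higher and 0 lower (median 0.83), and all 23 had a positive difference. Decorin (Dcn), a small proteoglycan that coats collagen fibrils, was at 2.65, 3.25 and 4.20 on late arrays and at -0.30, 1.32 and 3.87 on early arrays. It rose by 1.75 ± 0.36, or 3.35-fold (adjusted p = 0.00725). Gsn, the actin-severing gelsolin, rose by 1.52 ± 0.33 (adjusted p = 0.00842), and lumican (Lum), another collagen-binding proteoglycan, by 1.36 ± 0.35 (adjusted p = 0.02). For Dcn the 9 early arrays outside WT day 2 reached 1.66 at most, below every late array, and the WT day 2 arrays lay at 2.79 to 3.87. The marker Pdgfra gave 0.92 and did not pass. The count was 19 without the 3 WT day 2 arrays, 4 without WT day 1 replicate 1 and 16 without WT day 2 replicate 2.

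Structural matrix genes rose in part. Of 26 collagens and matrix proteins, 6 rose and 0 fell, with a median of 0.50. Prelp, a leucine-rich proteoglycan of connective tissue, rose by 1.32 ± 0.35 (adjusted p = 0.0233). Col6a1, a chain of the microfibrillar collagen VI, rose by 1.00 ± 0.28 (adjusted p = 0.0264), and fibronectin (Fn1) by 0.97 ± 0.27 (adjusted p = 0.0288). They passed in 22 and 20 of the 24 single-array omissions (up to 0.0533 and 0.0589, both without WT day 1 replicate 1). Thbs2, a matricellular thrombospondin, rose by 0.92 ± 0.30 with adjusted p = 0.0489, but passed in 6 of the 24 single-array omissions (up to 0.0907 without WT day 1 replicate 1). Over the single-array omissions the count ran from 1 (without WT day 1 replicate 1) to 12 (without WT day 2 replicate 2). It was 17 without the 3 WT day 2 arrays and 0 with the level of muscle probes as a covariate, described further on.

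**Figure D3:**
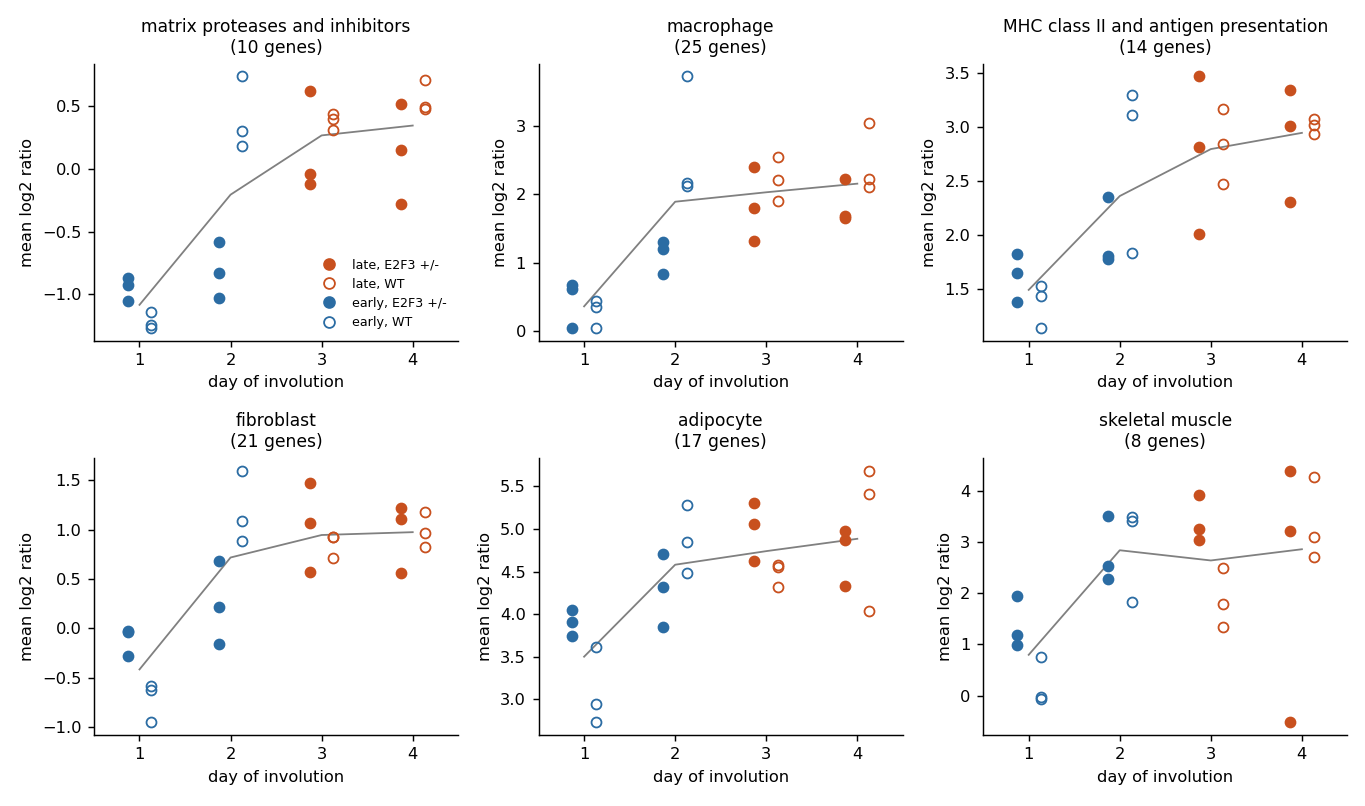
Mean log2 ratio of the genes of each list that were measured on all 24 arrays (y axis) by day of involution (x axis), with late arrays orange, early arrays blue, E2F3 +/- filled and WT open, and a grey line through the day means. In the panel of matrix proteases all late arrays lie at -0.28 or above, and early arrays reach that level only in WT day 2.

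Macrophage markers that passed were all higher in late glands. Of 33 tested, 11 rose and 0 fell (median 1.10), and 32 had a positive difference. The list averaged 1.32, 2.16 and 3.04 (lowest, median and highest) on late arrays and 0.05, 0.75 and 3.73 on early arrays, the highest early one being WT day 2 replicate 2. Besides Retnla, Ctss and Lgals3, the passing genes with the largest differences included Abcg1, a cholesterol exporter of lipid-laden macrophages, at 1.68 ± 0.48 (adjusted p = 0.0308), which passed in 16 of 24 single-array omissions (up to 0.0657 without WT day 1 replicate 1). Mpeg1, the pore-forming perforin-2 of macrophages, rose by 1.58 ± 0.42 (adjusted p = 0.0224) and the signalling adaptor Tyrobp by 1.04 ± 0.33 (adjusted p = 0.0473). Tyrobp passed in 6 of those omissions (up to 0.0863 without the same array). Other defining markers did not pass, among them Cd68 at 0.56 ± 0.22 (adjusted p = 0.0815), the growth factor receptor Csf1r at 0.76 ± 0.25 (0.0515) and lysozyme Lyz2 at 1.66 ± 0.62 (0.0763). The count was 31 without the 3 WT day 2 arrays, 7 without WT day 1 replicate 1 and 25 without WT day 2 replicate 2. In RNA of whole glands, more cells of a type and more RNA per cell cannot be told apart.

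Antigen presentation genes that passed were all higher in late glands. Of 18 tested, 10 rose and 0 fell (median 0.97). The invariant chain Cd74, which guides class II molecules to endosomes, was at 4.35, 5.10 and 5.69 on late arrays and at 2.18, 3.34 and 5.36 on early arrays, its 2 probes averaged. It rose by 1.61 ± 0.29 (adjusted p = 0.0041), and every late array exceeded the early median. H2-Aa, the alpha chain of the class II molecule I-A, was at 5.48, 6.51 and 9.28 on late arrays and at 2.78, 4.96 and 7.03 on early arrays. It rose by 1.53 ± 0.47 (adjusted p = 0.042), but passed in 10 of the 24 single-array omissions, with adjusted p up to 0.0779 without WT day 1 replicate 2. B2m, the light chain shared by class I molecules, rose by 1.13 ± 0.31 (adjusted p = 0.0257), and the class I gene H2-Q7 by 1.43 ± 0.36 (adjusted p = 0.0159). B2m passed in 22 omissions (up to 0.0525 without WT day 1 replicate 1). Class I genes are close paralogs that a 70-mer may not separate. Ciita, the transactivator of class II genes, gave -0.15 ± 0.24 and did not pass. The count was 15 without the 3 WT day 2 arrays, 4 without WT day 1 replicate 1 and 12 without WT day 2 replicate 2.

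Class II promoters are shown because class II genes share a known regulatory layout, in which an X box bound by the RFX complex is followed by a Y box bound by NF-Y. In the RefSeq promoters of GRCm38.p6 (250 bases before to 50 after each gene's start), 14 of the 18 list genes were matched. Cd74, H2-Ab1, Ciita and H2-Q1 were not matched and so were not searched, although Cd74 and H2-Ab1 belong to the class II pathway. Letters searched on both strands were GCAAC, a core of the X box, followed after 20 to 30 bases by CTGATTGG, the Y box. That pair stood in 22 of 32851 promoters (0.067%), and CTGATTGG alone in 4.1%. Of the 14 genes, 7 held CTGATTGG and 2 held the pair, H2-Aa and H2-Eb1. H2-Eb1, named for its promoter after its values were seen, gave 1.04 ± 0.68 and did not pass (adjusted p = 0.299), although 8 of its late arrays exceeded the highest early one. The stretches follow, at chr17:34287857-34287914 on the minus strand for H2-Aa and chr17:34305766-34305822 on the plus strand for H2-Eb1, with both motifs in capitals.
H2-Aa: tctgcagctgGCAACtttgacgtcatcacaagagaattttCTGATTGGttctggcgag
H2-Eb1: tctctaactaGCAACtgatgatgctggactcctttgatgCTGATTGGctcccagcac
Between the motifs lie 25 bases in H2-Aa and 24 in H2-Eb1. A match describes these letters and shows no binding.

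Complement and chemokine genes moved both ways. Of 9 tested complement genes, 2 rose and 2 fell. C1qb, a chain of the recognition molecule C1q made by macrophages, rose by 1.46 ± 0.36 (adjusted p = 0.0156), and the C1 inhibitor Serping1 by 1.47 ± 0.41 (adjusted p = 0.0275). Cfi, the protease that inactivates C3b, fell by 1.08 ± 0.26 (adjusted p = 0.0132) and was below the early median on all 12 late arrays. Cd59a, a membrane inhibitor of the terminal complex, fell by 0.47 ± 0.13 (adjusted p = 0.0289) and did not pass without centring. Without WT day 1 replicate 1 the adjusted p was 0.0597 for Cd59a and 0.0536 for Serping1. The count of higher complement genes was 1 without that array and 5 without WT day 2 replicate 2.

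Cxcl1, a neutrophil attractant, was at -3.74, -3.35 and -0.88 on late arrays and at -2.99, -1.49 and -0.34 on early arrays. It fell by 1.43 ± 0.29, or 2.70-fold (adjusted p = 0.00678), and 7 late arrays lay below the lowest early array. Its highest late value came from E2F3 +/- day 4 replicate 3. Ccl5, a lymphocyte attractant, rose by 1.45 ± 0.44 (adjusted p = 0.0402) and passed in 9 of 24 single-array omissions (up to 0.0729 without WT day 1 replicate 2). Cx3cl1, the membrane-bound fractalkine, rose by 0.80 ± 0.25 (adjusted p = 0.0418) and passed in 11 of them (up to 0.077 without the same array). The joining chain Jchain of secreted antibodies rose by 1.56 ± 0.48 (adjusted p = 0.0406) and passed in 10 (up to 0.0724 without WT day 1 replicate 3).

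**Figure D4:**
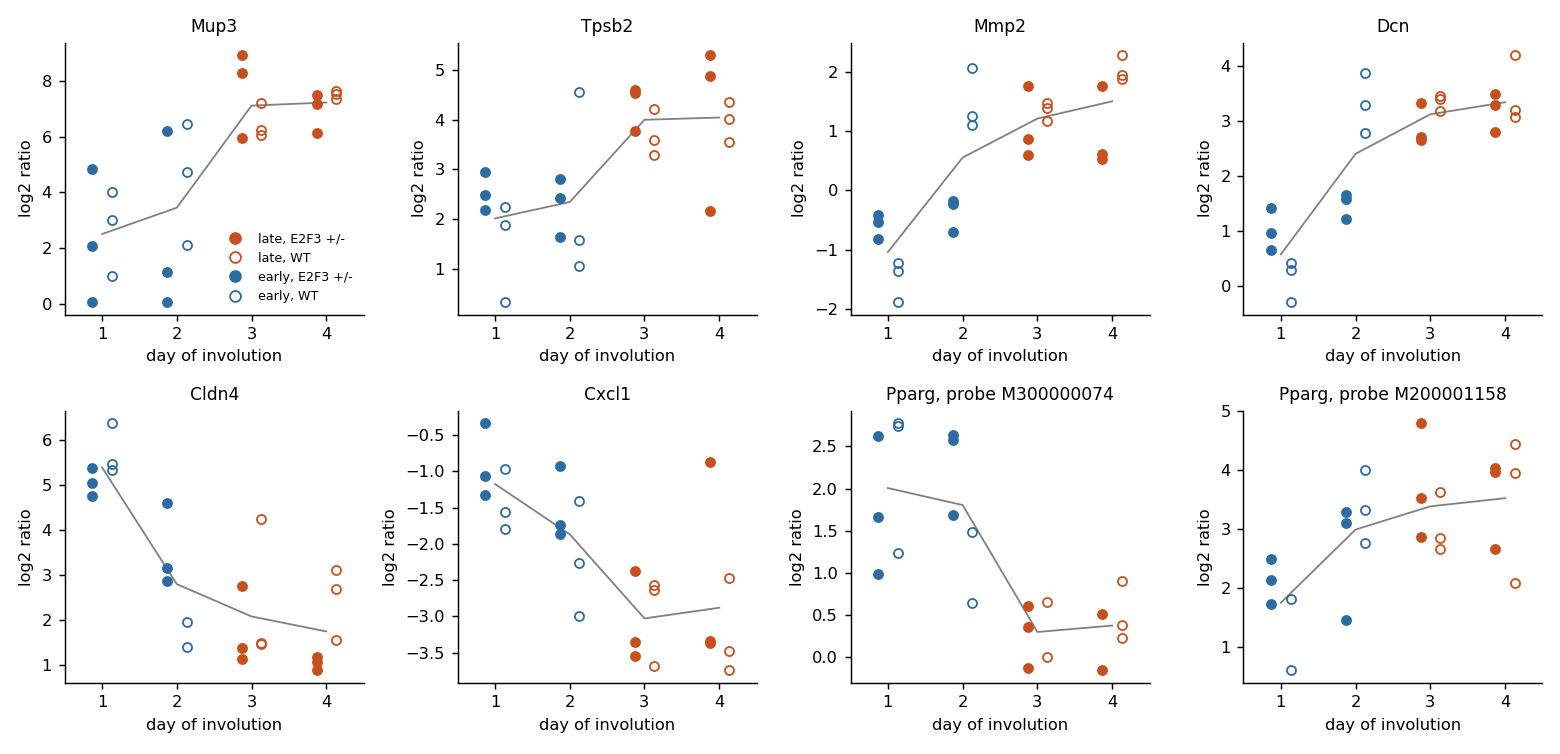
Log2 ratio (y axis) by day of involution (x axis) for 6 genes that passed and for 2 probes of Pparg, with late arrays orange, early arrays blue, E2F3 +/- filled and WT open, and a grey line through the day means. With the genotypes pooled, the largest step between day means lies between days 2 and 3 for Mup3 and Tpsb2. For Mmp2 and Dcn it lies between days 1 and 2. In E2F3 +/- alone Mmp2 lay at -0.81 to -0.42, -0.69 to -0.18 and 0.60 to 1.76 on days 1, 2 and 3. Dcn lay there at 0.66 to 1.41, 1.23 to 1.66 and 2.65 to 3.34, so both changed mostly after day 2. The Pparg probes run in opposite directions.

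Fat cell genes rose in part. Of 19 tested adipocyte genes, 7 rose and 1 fell (median 0.85). Slc2a4, the insulin-responsive glucose transporter, was at 3.83, 5.48 and 6.96 on late arrays and at 0.10, 3.98 and 5.70 on early arrays. It rose by 1.98 ± 0.51 (adjusted p = 0.0208). Lpl, lipoprotein lipase, rose by 1.43 ± 0.36 (adjusted p = 0.0176), with every late array above the early median. Rbp4, the retinol carrier secreted by fat and liver, rose by 1.84 ± 0.57 (adjusted p = 0.0414) and passed in 11 of 24 single-array omissions (up to 0.0778 without WT day 1 replicate 1). The fat cell hormone Adipoq gave 1.17 ± 0.39 and missed the threshold (adjusted p = 0.0532), and Fabp4, the fatty acid carrier, gave 0.40 ± 0.39 (0.478). The count was 14 without the 3 WT day 2 arrays, 3 without WT day 1 replicate 1 and 12 without WT day 2 replicate 3.

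Cidea went the other way in the same list. This lipid droplet protein of brown fat and of lactating epithelium was at 2.99, 4.61 and 7.41 on late arrays and at 4.37, 7.02 and 7.66 on early arrays. It fell by 1.53 ± 0.47 (adjusted p = 0.0406), and passed in 8 of 24 single-array omissions (up to 0.0731 without WT day 1 replicate 1). Outside that list, Ces1d of the 12 highest genes, a carboxylesterase that hydrolyses stored lipid, rose by 1.90 ± 0.51 (adjusted p = 0.0231). Cyp2e1, an ethanol-oxidising cytochrome P450 also of the 12 highest, rose by 2.06 ± 0.63 (adjusted p = 0.039) and passed in 12 of 24 omissions (up to 0.0699 without E2F3 +/- day 3 replicate 3).

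The probes of Pparg, the nuclear receptor that drives fat cell formation, disagreed. Probe M300000074 was at -0.16, 0.37 and 0.90 on 10 late arrays and at 0.64, 1.69 and 2.78 on 11 early arrays. It fell by 1.58 ± 0.27 (adjusted p = 0.00377), and 8 late arrays lay below the lowest early one. Probe M200001158 gave 1.03 ± 0.36 in the opposite direction and did not pass (adjusted p = 0.0601), and probe M300000075 was not tested, because a group had a value on fewer than 2 of its 3 arrays. No direction is therefore given for the gene. Ppard, a related receptor of fatty acid oxidation, fell by 1.60 ± 0.46 (adjusted p = 0.0296), at -1.71, -0.15 and 0.95 on late arrays and at -2.03, 1.99 and 2.80 on early arrays. It passed in 18 of 24 single-array omissions (up to 0.0555 without E2F3 +/- day 3 replicate 3).

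Genes of milk lipid synthesis that passed were higher in late glands. Of 26 tested, 7 rose and 0 fell (median 0.50). The largest difference was that of Lpl, given above with the fat cell genes, so this list is not specific to milk-producing cells. Which cells the rise came from was not tested. Scd2, a desaturase of stearoyl-CoA, was at -2.00, -1.20 and 0.51 on late arrays and at -3.63, -2.13 and -1.44 on early arrays. It rose by 1.18 ± 0.27 (adjusted p = 0.00929). Lpin1, a phosphatidate phosphatase of triglyceride synthesis, rose by 1.09 ± 0.24 (adjusted p = 0.00879), and Acsl3, which activates long-chain fatty acids, by 0.99 ± 0.27 (adjusted p = 0.0257, or 0.0502 without WT day 1 replicate 3). The count was 11 without the 3 WT day 2 arrays, 4 without WT day 1 replicate 3 and 10 without WT day 2 replicate 3. Of 7 tested milk protein and fat globule genes none passed in either direction, with a median of -0.46. Without the 3 WT day 2 arrays 4 of the 7 fell and 0 rose, with a median of -1.05, and with array weights 3 fell. On all 24 arrays Lalba gave -0.80 ± 0.45 and the casein gene Csn3 gave -0.53 ± 0.36. Each was below its early median on most late arrays, 12 and 10. Stat5b, which carries the prolactin signal, rose by 0.87 ± 0.22 (adjusted p = 0.0183), the only passing gene of 6 on the prolactin list.

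The lower side was led by Shisa9, Wfdc12 and Cldn4. Shisa9, a regulator of glutamate receptors in brain, was at 0.25, 1.74 and 3.38 on late arrays and at 0.40, 4.69 and 7.06 on early arrays. It fell by 2.91 ± 0.64, or 7.49-fold (adjusted p = 0.0102). Wfdc12, a small secreted protease inhibitor, was at 0.94, 2.39 and 2.96 on late arrays and at 0.29, 4.91 and 7.19 on early arrays, and fell by 2.50 ± 0.60 (adjusted p = 0.0151). Outside WT day 2 the early arrays of Shisa9 lay at 4.07 or above and those of Wfdc12 at 3.09 or above, beyond every late array. Cldn4, a tight junction claudin of luminal epithelium, was at 0.89, 1.48 and 4.25 on late arrays and at 1.40, 4.75 and 6.37 on 11 early arrays. It fell by 2.31 ± 0.52, or 4.97-fold (adjusted p = 0.0123).

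Cldn4 was the only gene of 16 luminal markers to pass, and 0 rose (median -0.21). Without the 3 WT day 2 arrays 5 luminal markers fell and 0 rose (median -0.56). On all 24 arrays the luminal keratins Krt8 and Krt18 gave -0.14 ± 0.29 and -0.12 ± 0.24, with adjusted p of 0.758 and 0.742. Rnase1, a secreted ribonuclease, was at 2.35, 4.27 and 5.89 on late arrays and at 2.52, 6.72 and 7.35 on early arrays. It fell by 1.93 ± 0.41 (adjusted p = 0.00941). Qsox1, which forms disulfide bonds in secreted proteins, fell by 2.20 ± 0.61 (adjusted p = 0.027). The stress-induced chromatin protein Nupr1 fell by 2.10 ± 0.58 (adjusted p = 0.0265), with day means of 5.18, 1.57, 1.46 and 1.08, so that most of its difference lay between days 1 and 2. Without WT day 1 replicate 1 the adjusted p of Nupr1 was 0.0505.

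Other genes of the lowest 12 passed in only some of the single-array omissions. Orm3, an acute phase orosomucoid, fell by 2.22 ± 0.64 (adjusted p = 0.0308) and passed in 17 of 24, up to 0.0572 without E2F3 +/- day 1 replicate 2. Cyp24a1, which degrades active vitamin D, fell by 2.01 ± 0.63 (adjusted p = 0.0431) and passed in 8, up to 0.0743 without WT day 1 replicate 1. The transcription factor Nfia fell by 1.89 ± 0.59 (adjusted p = 0.0405) and passed in 11, up to 0.0715 without E2F3 +/- day 4 replicate 2. Ace, the angiotensin-converting enzyme, fell by 1.65 ± 0.50 on probe M300002328 (adjusted p = 0.0389) and passed in 12, up to 0.071 without E2F3 +/- day 4 replicate 1. Its other 2 probes gave -1.04 ± 0.68 and -1.30 ± 0.65 and did not pass.

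Lists tied to the first phase mostly did not pass between the phases. None of 10 tested genes of Stat3 and LIF signalling, the death signal of the first phase, passed in either direction. Without WT day 2 replicate 3 alone 4 rose and 1 fell, and without the 3 WT day 2 arrays 3 rose and 5 fell. Stat3 itself gave -0.44 ± 0.35 (adjusted p = 0.395). None of 13 genes on the acute phase list passed (median -0.64), though Orm2 gave -2.53 ± 0.90 (adjusted p = 0.0636), named here after its values were seen. Orm3, which passed as given above, was not counted among them. Of the list, 5 genes fell without the 3 WT day 2 arrays. The number was 4 without WT day 2 replicate 3 and E2F3 +/- day 4 replicate 3. Of 36 lysosomal genes, 4 rose and 2 fell (median 0.15). These counts were 1 and 0 at their lowest (without WT day 1 replicate 1), 9 and 6 without WT day 2 replicate 3, and 12 and 8 without the 3 WT day 2 arrays. Besides Ctss, Laptm5, a lysosomal membrane protein of blood cells, rose by 1.43 ± 0.40 (adjusted p = 0.0283) and passed in 20 of 24 omissions (up to 0.058 without WT day 1 replicate 1). Cathepsin L (Ctsl) fell by 1.21 ± 0.37 (adjusted p = 0.0402) and passed in 11 of 24 omissions (up to 0.0703 without WT day 1 replicate 2), and the glucuronidase Gusb fell by 0.93 ± 0.27 (adjusted p = 0.034) and passed in 13 (up to 0.0647 without E2F3 +/- day 3 replicate 3). Cidea was the only one of 15 apoptosis genes that passed.

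Cell cycle genes showed no common direction. Of 15 tested, 2 rose and 1 fell (median -0.09). Stathmin (Stmn1), a microtubule destabiliser of dividing cells, was at -2.17, -1.23 and -0.32 on late arrays and at -1.46, -0.35 and 0.97 on early arrays. It fell by 1.05 ± 0.27 (adjusted p = 0.0195). Rfc1, a subunit of the replication clamp loader, rose by 0.49 ± 0.13 (adjusted p = 0.0233), and the kinase inhibitor Cdkn2c by 0.87 ± 0.26 (adjusted p = 0.0384), which passed in 11 of 24 omissions (up to 0.076 without WT day 1 replicate 2). E2f1, the only E2f probe tested, gave -0.49 ± 0.22 and did not pass (adjusted p = 0.136). It passed with array weights (0.0296) and without WT day 2 replicate 3 and E2F3 +/- day 4 replicate 3 together (0.0436).

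Of 28 cytosolic ribosomal protein genes, 3 fell and 0 rose (median -0.40). Rps27l, a ribosomal protein paralog, was at -1.03, -0.39 and -0.04 on late arrays and at -0.33, 0.47 and 1.71 on early arrays. It fell by 0.94 ± 0.19 (adjusted p = 0.00725), and all 12 late arrays lay below the early median. Rpl41 and Rpl27a also fell, by 0.61 and 0.49, but neither passed without centring. Rpl41 passed in 13 and Rpl27a in 10 of 24 single-array omissions (up to 0.0701 without WT day 4 replicate 3 and 0.0757 without E2F3 +/- day 4 replicate 2). The count was 10 without the 3 WT day 2 arrays, 1 without WT day 1 replicate 1 and 12 without WT day 2 replicate 3. Of 35 oxidative phosphorylation genes, 4 rose and 0 fell (median 0.32), and Sdha, the catalytic subunit of succinate dehydrogenase, rose by 1.09 ± 0.26 (adjusted p = 0.0128). The oxidative phosphorylation count was 1 without WT day 1 replicate 1, 13 without WT day 2 replicate 3 and 24 without the 3 WT day 2 arrays.

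Skeletal muscle transcripts varied widely between arrays and most of their differences were positive. The 8 muscle genes measured on all arrays averaged -0.52, 3.06 and 4.39 (lowest, median and highest) on late arrays and -0.05, 1.88 and 3.50 on early arrays. The lowest late array was E2F3 +/- day 4 replicate 3, and the WT day 1 arrays held the low early values. Of 18 tested muscle genes, 17 had a positive difference (median 1.22), and 1 passed, the Z-disc protein Ldb3 at 1.80 ± 0.57 (adjusted p = 0.0484). Ldb3 passed in 7 of 24 single-array omissions (up to 0.0904 without WT day 1 replicate 2). The count of muscle genes was 0 without WT day 1 replicate 1 and 8 without E2F3 +/- day 4 replicate 3. With the level of muscle probes on each array as a covariate, the count of passing probes was 220 in place of 677. The count of higher genes was then 0 for collagens and matrix proteins, 0 for complement and 0 for chemokines. It was 1 for oxidative phosphorylation, 1 for lysosome, 2 for macrophages, 2 for antigen presentation, 2 for adipocytes, 3 for fibroblasts and 3 for milk lipid synthesis, and 6, as before, for matrix proteases and inhibitors. Of the 12 highest genes, 8 still passed, without Ces1d, Cyp2e1, Rbp4 and Retnla. Of the 12 lowest, 5 still passed, namely Shisa9, Wfdc12, Cldn4, Rnase1 and Pparg probe M300000074. With ratios of 0 set to 0.01, 8 of the 12 highest passed, without Cyp2e1, Igkv9-120, Rbp4 and Retnla, and of the 12 lowest Shisa9, Wfdc12, Nupr1 and Rnase1 passed.

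The genotypes were compared by the same difference in each. In E2F3 +/- glands 553 probes passed (10.2%), 250 higher (4.6%) and 303 lower (5.57%), against 30 (0.552%) in WT glands, 20 higher (0.368%) and 10 lower (0.184%; limma). No probe passed the test of the difference between genotypes, and 1039 (19.1%) had an unadjusted p under 0.05, so the unequal counts do not show that the genotypes differ. That test depended on the arrays and the fit. It gave 764 passing probes without the 4 arrays that go against their labels, 642 when WT day 4 replicate 2 was kept, 344 with array weights, 310 with the muscle covariate and 126 without E2F3 +/- day 3 replicate 1. The arrays left out include E2F3 +/- arrays nearest to WT day 3, a choice that itself favours a genotype difference. The counts from those omissions therefore do not show that the genotypes differ. The count in E2F3 +/- fell to 1 without day 3 replicate 3, against 1502 without day 3 replicate 1. The WT count was 1348 without the 3 WT day 2 arrays. Mup3 differed by 4.93 in E2F3 +/- and 3.46 in WT, Lgals3 by 2.00 in both, and Tpsb2 by 1.79 in E2F3 +/- and 1.90 in WT. Some of the 12 lowest genes were less alike, though none passed the test between genotypes. In E2F3 +/- and WT, Ppard differed by -2.69 and -0.51, Nfia by -3.12 and -0.67, Qsox1 by -3.37 and -0.92, and Orm3 by -3.38 and -1.05. Nupr1 fell more in WT, by -1.52 and -2.69.

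Among probes with 1 gene symbol, the 6 with the smallest p-values for a genotype difference all had an adjusted p of 0.164 (limma). Probes without a single symbol were not ranked here. Dhrs3, a retinal reductase, differed between phases by -1.17 in E2F3 +/- and 1.15 in WT. Stard3, a cholesterol-binding endosomal protein, differed by -0.78 in E2F3 +/- and 0.34 in WT. The kinase gene Pim3 differed by -0.70 in E2F3 +/- and 1.10 in WT, and Slc46a3, a lysosomal transporter, by -0.61 in E2F3 +/- and 0.90 in WT. Fam107b and Rbmxl1 ran the opposite way, at 1.00 and 0.35 in E2F3 +/- and at -0.82 and -0.51 in WT. All 6 passed without E2F3 +/- day 3 replicate 1, at adjusted p between 0.0291 and 0.0386. The probes were chosen on these same arrays and the omitted array was the one nearest to WT day 3 on E2F3 +/- day 3. These passes therefore give no support to a genotype difference. Another probe of Dhrs3 gave a phase difference of 0.38 ± 0.21 over both genotypes and did not pass.

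**Figure D5:**
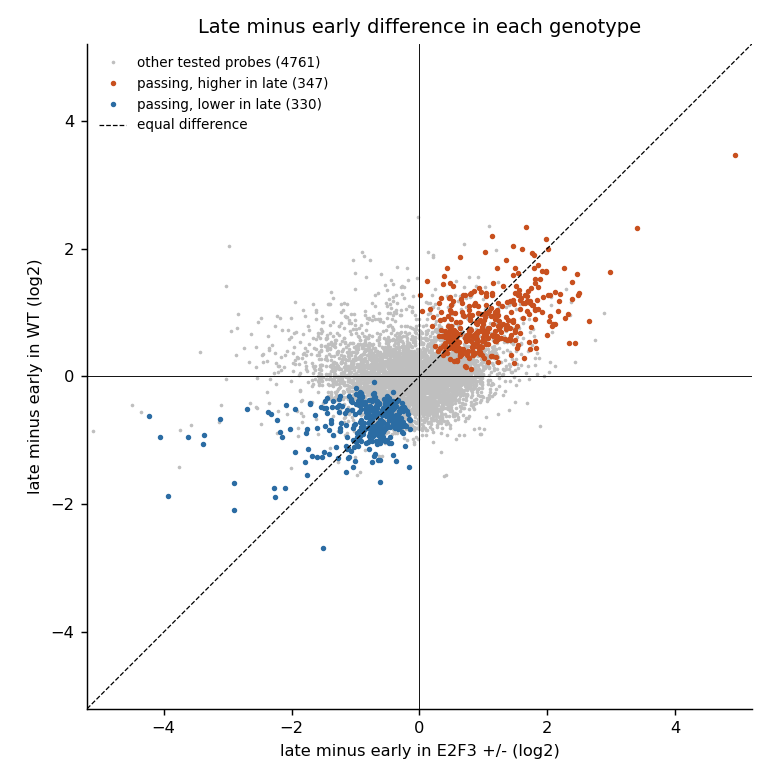
Late minus early log2 difference in E2F3 +/- (x axis) and in WT (y axis) for the 5438 tested probes, with probes that passed over both genotypes in orange (347 higher) or blue (330 lower), the others grey, and a dashed line of equal difference. All passing probes lie in the quadrants where both genotypes have the same sign, which choosing them on the difference over both genotypes largely fixes.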

How the data were processed

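Per the labels, every array holds RNA of its own mouse. P-values of the day steps reflect the spread between mice within a genotype and day. In the phase comparison, also within and between genotypes, the residual spread holds day differences inside each phase as well as mouse differences. The authors deposited linear ratios, 1 per probe and array for 6267 probes; scanner, background correction, normalization and genome build: not given in the sources used here. Values of 0 (8719 values on the 24 arrays) or 0.01 (698) were taken as missing. The deposited ratios, with array medians of 1.03 to 1.27, were converted to log2 and each array was centred on its median. Testing required values on 2 or more of the 3 arrays in each of the 8 groups; 829 probes were set aside. Of the tested probes 3492 carry 1 gene symbol and cover 3209 genes, and 1946 carry none or several and stay unnamed. A ratio was read as having a fixed lowest reference where 90% of its values from 1 to 100 were whole multiples of 0.1 (100 of 3528 probes; Mup3, Retnla, Igkv9-120, Slc2a4, Ces1d, Rbp4, Ace, C1qb, Serping1, Lum and Ldb3 among the named genes).

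Differences were fitted with limma 3.58.1 (R version 4.3.3), and tables and figures were made with matplotlib 3.10.9, numpy 2.4.6, pandas 2.3.3 and Python 3.11.15. The phase comparison had genotype as an additive term, the comparisons within and between genotypes had 1 mean per genotype and phase, and the day steps had 1 mean per genotype and day. Benjamini-Hochberg adjustment ran over all tested probes or, for lists, over all genes with probes averaged. Errors are standard errors unless stated. On simulated probes of this layout the phase fit recovered 32%, 84%, 94% and 100% of those changed 1.5-, 2-, 4- and 8-fold. It also called 14 unchanged probes. The simulated noise was independent for each probe, with no day or genotype effects and no arrays that stand apart. These rates are therefore not rates for the real arrays.

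Named genes are the 12 highest and 12 lowest passing probes with 1 symbol, the same sign in both genotypes and values on at least 10 of 12 arrays per phase. Also named are up to 4 passing genes per list, defining markers, every E2f probe and the 6 smallest genotype by phase p-values among probes with 1 symbol. The members and the 32 lists were chosen with earlier results of these data known. Replicate numbers do not pair mice: same-numbered arrays had a median correlation of 0.016 in their deviations. Alternatives were no centring, quantile normalization, other filters, other handling of 0 and 0.01, array weights, a replicate block, a muscle covariate, 8 group means, no genotype term and arrays left out.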

Additional observations from a re-analysis of the deposited data

Results flagged for a closer look

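Some probes were set aside from testing because at least 1 group had a value on fewer than 2 of its 3 arrays. Among these 829 probes, 10 had a value on at least 6 more late than early arrays and 2 on at least 6 more early than late arrays. Kcnab1, a subunit of voltage-gated potassium channels, had a value on 8 late arrays against 0 of 12 early arrays. Penk, the precursor of enkephalin opioid peptides, had a value on 7 late arrays and 0 early arrays. Rassf8, a member of the Ras association domain family, had a value on 6 late arrays and 0 early arrays. In the other direction Olfr263, an olfactory receptor gene, had a value on 0 late and 7 early arrays, and Lmbr1 on 4 late and 10 early arrays. What a ratio of 0 means is not given in the sources used here, so these are counts of arrays with a value, with no fold and no test. No outlier test was made, because the labelled groups hold 3 arrays and the phases 12.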

How the results depend on the processing

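The phase comparison, 677 probes, gave 301 with ratios of 0 set to 0.01, 2550 with array weights (whose fit stopped before convergence), 1845 without WT day 2 replicate 3 and E2F3 +/- day 4 replicate 3, 220 with the muscle covariate, 1551 with 8 group means and, in alternatives chosen after seeing the data, 2249 without 3 arrays (WT day 2 replicate 3, E2F3 +/- day 3 replicate 1 and day 4 replicate 3), 2083 without these and WT day 4 replicate 2, and 2782 without the 3 WT day 2 arrays. Over single-array omissions it ran from 303 to 1647. It was 303, 360 and 376 without WT day 1 replicates 1, 2 and 3, 380 and 348 without E2F3 +/- day 1 replicates 1 and 2, 415 and 404 without E2F3 +/- day 2 replicates 1 and 2, 312 without E2F3 +/- day 3 replicate 3, 356 and 347 without E2F3 +/- day 4 replicates 1 and 2, and 420, 432 and 325 without WT day 4 replicates 1, 2 and 3. In E2F3 +/-, 553 probes became 48 with 0 set to 0.01, 2473 with weights, 1774 without the first pair of arrays, 285 with the covariate, 2510 without the 3 arrays, 2539 without the 4, 1988 without WT day 2 and 1 to 1502 over single omissions. In WT, 30 became 65 with quantile normalization, 59 on probes measured on all 24 arrays, 1552, 145, 73, 222, 163 and 1348 under the same 6 changes in order (weights, the pair, the covariate, the 3 arrays, the 4 arrays, WT day 2), and 0 to 175 over single omissions. The genotype by phase count, 0, became 344 with weights, 310 with the covariate, 642 without the 3 arrays, 764 without the 4, 19 without WT day 2 and 0 to 126 over single omissions. The day 2 minus day 1 count, 2071, became 663 with the covariate and 1514 to 2370 over single omissions. Day 3 minus day 2, 0, became 103 with quantile normalization, 666 with weights, 316 without the pair, 12 with the covariate, 356 without the 3 arrays, 436 without the 4 and 0 to 240 over single omissions. Day 4 minus day 3, 0, became 2 with quantile normalization, 1664 with weights, 774 without the pair, 365 without the 3 arrays, 389 without the 4 and 0 to 317 over single omissions. Replicate numbers do not pair the mice; with them as a replicate block the phase count was 541 and the E2F3 +/- count 307. Of 3182 values of named genes recomputed for the phase comparison, 2704 kept their side of the threshold and direction, 476 no longer passed, 2 newly passed and 0 changed sign. The cause of these changes was not tested. Signal over background is not given in the sources used here, so dim probes could not be told from bright ones.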

Other observations

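Several gene groups not described above held few or no passing members on the 24 arrays. Without the 3 WT day 2 arrays 8 interferon response genes rose and 1 fell, and 3 myoepithelial genes rose and 4 fell. In that fit 6 chaperone and unfolded protein response genes rose and 0 fell, and 3 genes of the insulin-like growth factor axis rose and 2 fell. The values that follow are from all 24 arrays. Cav1, the coat protein of caveolae in fat, muscle and myoepithelial cells, was at 0.14, 0.73 and 1.48 on late arrays and at -1.26, -0.48 and 0.95 on early arrays (lowest, median and highest). It rose by 1.08 ± 0.23 (adjusted p = 0.00842) and was the only one of 7 myoepithelial genes to pass. Herpud1, a membrane protein of the degradation pathway of the endoplasmic reticulum, rose by 1.06 ± 0.28 (adjusted p = 0.0233), 1 of 21 chaperone and unfolded protein response genes to pass. Ifitm3, an interferon-induced membrane protein, rose by 0.86 ± 0.24 (adjusted p = 0.0296), 1 of 12 interferon response genes to pass. It passed in 17 of 24 single-array omissions, up to 0.058 without WT day 1 replicate 1. Igfbp6, a binding protein with a preference for IGF-II, rose by 1.19 ± 0.35 (adjusted p = 0.0349), 1 of 7 genes of the insulin-like growth factor axis to pass. It passed in 12 of 24 omissions, up to 0.0685 without WT day 1 replicate 1.

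None passed of 9 cholesterol synthesis genes (median -0.10), 17 genes of TGF-beta, BMP and Wnt signalling (median 0.16), 6 endothelial genes (median -0.20) and 2 of the E2F and retinoblastoma family. Without the 3 WT day 2 arrays 5 genes of TGF-beta, BMP and Wnt signalling rose and 1 fell, 1 cholesterol synthesis gene fell and 1 endothelial gene rose. Ccl5 was the 1 passing gene of 2 tested T and NK cell genes, and Jchain the 1 of 2 tested B and plasma cell genes. No red blood cell gene was tested.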
